A study of Mus musculus with 17 samples.

Results

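MHC class II presentation was followed through 10 genes of the mouse lung: H2-Aa, H2-Ab1, H2-Eb1, Cd74, Ciita, H2-DMa, H2-DMb1, H2-DMb2, H2-Oa and H2-Ob. They were taken by symbol from a raw count table of 45777 genes, and each of the 10 passed the filter on low counts. The lungs came from male wild-type C57BL/6 mice, 6 weeks old at the start and acclimatised for a week. In the irradiated groups the left lung received a single 65 Gy or 75 Gy fraction from an image-guided small-animal irradiator, and the controls received no radiation. Tissue was collected after 2 weeks, which the study called the inflammation stage, or after 6 weeks, its fibrosis stage. Each group held 3 libraries except 65 Gy at 6 weeks, which held 2. The study's methods give lesions of the irradiated lung as the source of RNA, so an irradiated library samples the injured part of a lung.

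Class II molecules display peptides from endosomes to CD4 T cells. The α and β chains (H2-Aa with H2-Ab1 for I-A, H2-Eb1 for I-E) are held by the invariant chain, Cd74, until cathepsins degrade it. H2-DM then exchanges the remaining fragment for other peptides, and H2-O, found mainly in B cells, restrains H2-DM. Ciita encodes the transactivator that switches these genes on. It binds no DNA itself and works through RFX, CREB and NF-Y proteins seated on the X and Y boxes of class II promoters, and interferon-gamma induces it in cells that do not express it constitutively. In lung, dendritic cells, macrophages, B cells and alveolar type 2 cells all carry class II. The b haplotype of C57BL/6 mice lacks a working I-E α chain, so H2-Eb1 is transcribed without I-E reaching the cell surface.

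The members' positions are given in GRCm38.p6 from the RefSeq annotation. H2-Oa (chr17:34092379-34095234), H2-DMa (chr17:34119693-34139101), H2-DMb2 (chr17:34143229-34151553), H2-DMb1 (chr17:34153191-34160229), H2-Ob (chr17:34238905-34245908), H2-Ab1 (chr17:34263227-34269418), H2-Aa (chr17:34282744-34287823) and H2-Eb1 (chr17:34305867-34316674) lie in the MHC. Ciita (chr16:10480014-10531064) and Cd74 lie outside it. The promoter sequences, 250 bases before to 50 bases after a RefSeq start, are shown because the members share a regulator but did not move together. The X box was searched as CCNAGNNAC and the Y box as GATTGG, on both strands. A module was an X box followed on the same strand by a Y box with 10 to 30 bases between them. Capitals mark the module, or every X and Y box where a window held no module. The first pair are neighbours that encode alternative β chains of H2-DM, the third encodes the β chain of H2-O and the last the α chain of I-A.
H2-DMb1, chr17:34152941-34153240, plus strand: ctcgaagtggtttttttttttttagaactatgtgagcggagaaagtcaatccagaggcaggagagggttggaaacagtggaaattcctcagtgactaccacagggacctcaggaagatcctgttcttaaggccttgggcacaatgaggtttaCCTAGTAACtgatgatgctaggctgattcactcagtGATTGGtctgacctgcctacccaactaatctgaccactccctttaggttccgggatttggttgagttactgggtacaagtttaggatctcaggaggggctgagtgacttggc
H2-DMb2, chr17:34144999-34145298, plus strand: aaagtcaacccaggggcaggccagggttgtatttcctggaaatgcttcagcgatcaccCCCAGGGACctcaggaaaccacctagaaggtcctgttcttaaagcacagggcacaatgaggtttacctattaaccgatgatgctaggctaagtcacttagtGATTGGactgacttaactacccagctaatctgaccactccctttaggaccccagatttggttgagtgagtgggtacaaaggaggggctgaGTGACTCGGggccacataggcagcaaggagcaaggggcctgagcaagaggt
H2-Ob, chr17:34238655-34238954, plus strand: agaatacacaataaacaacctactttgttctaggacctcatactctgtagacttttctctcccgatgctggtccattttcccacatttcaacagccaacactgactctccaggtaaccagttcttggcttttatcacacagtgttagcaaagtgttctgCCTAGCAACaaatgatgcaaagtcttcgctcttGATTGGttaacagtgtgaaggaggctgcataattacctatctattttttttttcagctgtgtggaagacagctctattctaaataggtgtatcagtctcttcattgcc
H2-Aa, chr17:34287774-34288073, minus strand: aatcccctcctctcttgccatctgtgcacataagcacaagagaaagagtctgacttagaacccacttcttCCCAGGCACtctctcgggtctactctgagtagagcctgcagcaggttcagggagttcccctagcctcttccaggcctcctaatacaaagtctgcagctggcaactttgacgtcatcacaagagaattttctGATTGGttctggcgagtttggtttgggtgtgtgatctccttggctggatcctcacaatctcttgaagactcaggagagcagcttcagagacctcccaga

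The module was present in H2-DMb1 (27 bases between the boxes, X box starting 98 bases before the start), H2-Ob (24 bases, 91 before) and H2-Oa (27 bases, 80 before). These letters gave none in the windows of H2-DMa, H2-DMb2, H2-Aa and H2-Eb1, and no window was matched for H2-Ab1, Ciita and Cd74. For H2-DMa the windows were chr17:34122582-34122881 and chr17:34125268-34125567, so a module at another start of this gene would be missed. Over all 32817 promoter windows, 17.3% held an X box, 16.1% a Y box and 52 windows (0.158%) the module. With 1 fixed letter of the X box allowed to change, a variation chosen after the sequences were seen, H2-DMb2 also held a module with 27 bases between (G5T, counting from 1 at the 5′ end of the X box, motif letter first), and H2-Eb1 held one with 26 bases between (C1A). That looser module was present in 1.92% of all windows. Neither search gave a module for H2-Aa, and the capitals in its window mark boxes too far apart to form one. Its window also holds gctggcaac with 27 bases between it and GATTGG. Those letters differ from the X box at more than the 1 fixed letter allowed. A more divergent X box would be missed by both searches, so H2-Aa is not shown to lack a module. The match is a description of letters and was not tied to binding. Both a gene that rose after irradiation, H2-DMb1, and one that was lower, H2-Ob, carried the strict module.

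Library totals ran from 46764569 to 66797879 counts. As a check of the labelled tissue, the summed level of 9 alveolar type 2 markers lay between 18511 and 33878 CPM (counts scaled to the size of the library) in every library. 3 libraries stood apart. One of the 75 Gy libraries at 2 weeks, numbered 3134, had the highest sums of macrophage markers (2806 CPM), dendritic cell markers (599.9 CPM) and pan-leukocyte markers (1692 CPM) of the 17. Controls 3126 at 2 weeks (340.1 CPM) and 3135 at 6 weeks (621.5 CPM) had the highest B cell marker sum of their time. In whole tissue, more cells of a type and more RNA per cell cannot be told apart. Nothing in the labels says which libraries came from separate mice, so p-values measure the spread between these libraries.

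Levels were compared between genes per kilobase of exon. In the control lung at 2 weeks the order was Cd74 (653.5 ± 130.1 CPM per kb, SD, n = 3), H2-Aa (394.1 ± 51.1), H2-Ab1 (223 ± 39.6), H2-Eb1 (142.2 ± 25.0), H2-DMb1 (37.5 ± 4.91), H2-DMb2 (17.1 ± 2.30), H2-DMa (16.1 ± 2.48), H2-Ob (10.4 ± 2.70), H2-Oa (6.51 ± 0.892) and Ciita (6.19 ± 0.963). H2-DMb2 and H2-DMa differed by less than their SD, as did H2-Oa and Ciita. The order of the lower genes depends on the exon lengths used, which were 2668 bases for H2-DMa and 8225 for Ciita. Before division by length the mean CPM were 43.1 for H2-DMa, 29.8 for H2-DMb2, 50.9 for Ciita and 7.09 for H2-Oa. The chains and their chaperone were thus measured at levels far above the accessory genes and the transactivator. Together the 10 genes took 0.206% ± 0.0289 (SD, n = 3) of all counts in the 2-week controls and 0.524% ± 0.265 (n = 3) after 75 Gy, and 0.239% ± 0.0148 (n = 3) and 0.592% ± 0.0692 (n = 3) at 6 weeks.

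**Figure D1:**
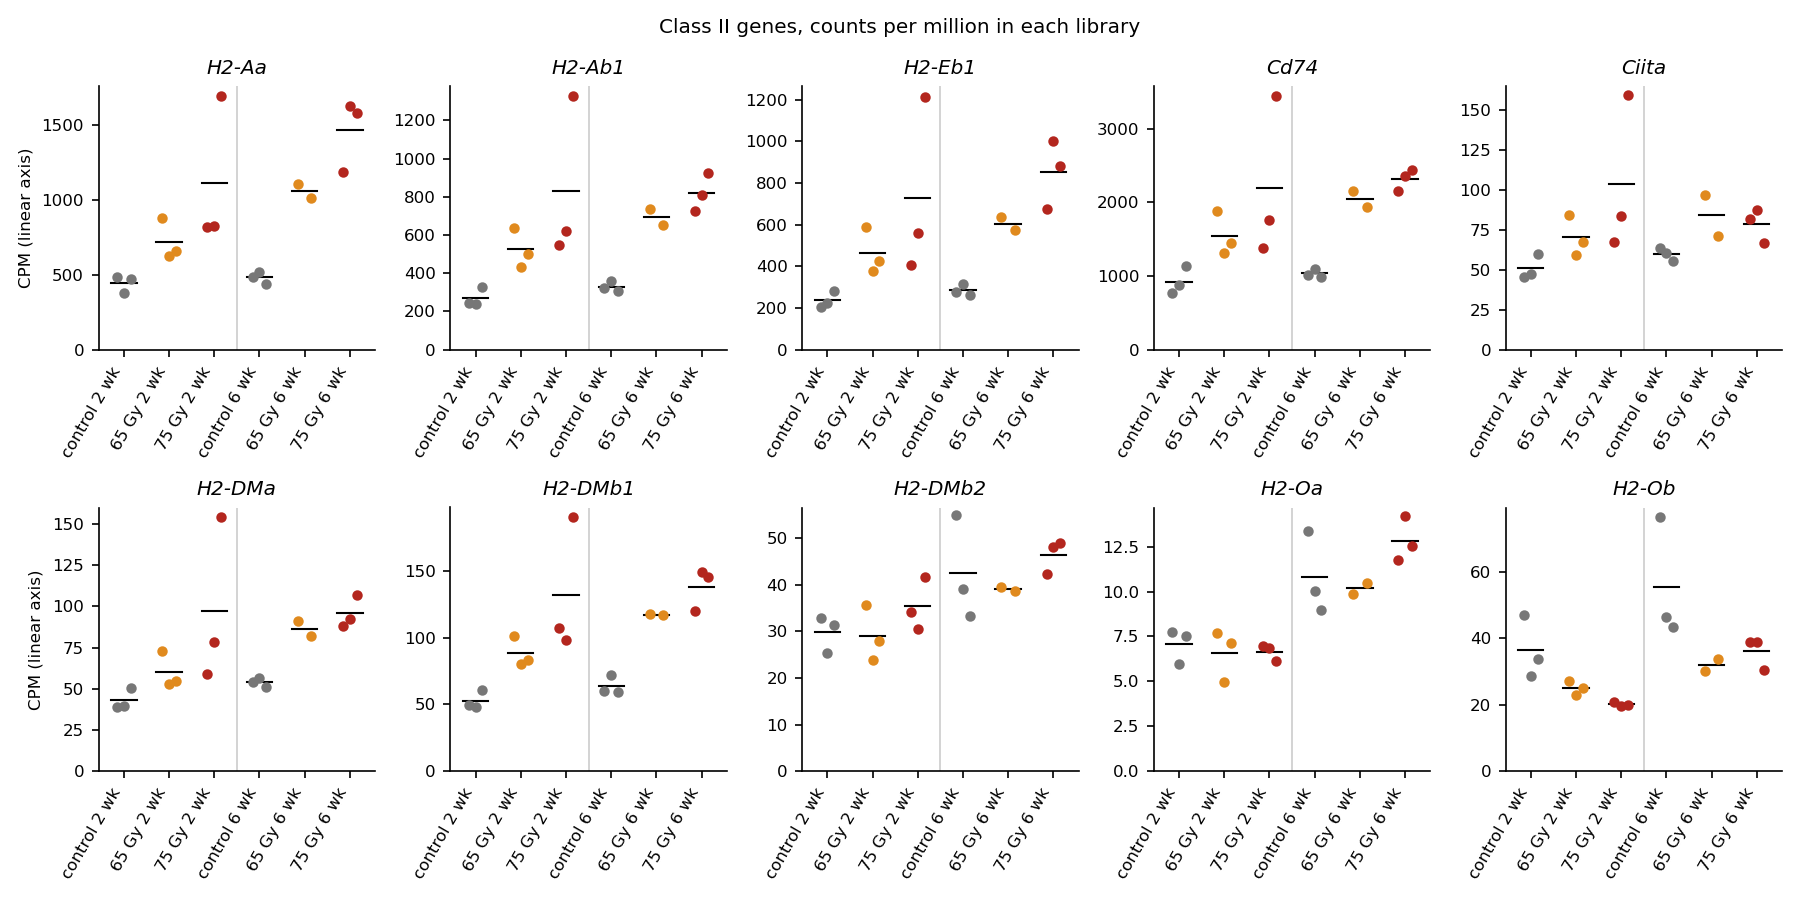
CPM of each class II gene (linear axis from 0) in every library, by group, with points for libraries and a bar for the group mean. The 75 Gy libraries at 2 weeks include one, 3134, that is the highest of its group for 8 of the 10 genes, while H2-Ob lies lower in all irradiated groups than in the controls of the same time.

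The classical chains were higher in every irradiated library than in any control library of the same time. The share of all genes that separated as fully is not given, so such separation, here and below, is a description of the libraries. H2-Aa measured 484, 378 and 471 CPM in the 2-week controls, 879, 626 and 660 CPM after 65 Gy, and 821, 823 and 1696 CPM after 75 Gy. At 6 weeks it measured 484, 521 and 440 CPM in controls, 1109 and 1013 CPM after 65 Gy, and 1184, 1629 and 1582 CPM after 75 Gy. The groups did not overlap with their controls, and after 75 Gy at 2 weeks library 3134 lay far above the other two. H2-Ab1 went from 245, 240 and 326 CPM in 2-week controls to 639, 432 and 503 CPM after 65 Gy and 550, 621 and 1326 CPM after 75 Gy. Its 6-week values were 323, 358 and 308 CPM in controls, 737 and 652 CPM after 65 Gy, and 728, 810 and 923 CPM after 75 Gy. Again no irradiated library fell into the control range. H2-Eb1 stood at 203, 226 and 284 CPM in 2-week controls, 590, 376 and 428 CPM after 65 Gy and 408, 561 and 1215 CPM after 75 Gy. At 6 weeks the same gene gave 279, 313 and 261 CPM, then 636 and 573 CPM after 65 Gy, and 674, 1000.4 and 880 CPM after 75 Gy. The spread at 75 Gy was widest at 2 weeks for all these chains, where library 3134 lay highest.

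A gene was called when edgeR's quasi-likelihood test and Benjamini-Hochberg adjustment over 22052 genes left p at or under 0.05 and the log2 fold change was 1 or more in size. For 75 Gy against control at 2 weeks, 7 of 10 members were called higher and none lower, against 5.67% of all genes called higher and 2.07% called lower. H2-Ab1 rose 3.08-fold (log2 fold change 1.62 ± 0.26 SE, adjusted p = 0.0006729), H2-Eb1 3.07-fold (1.62 ± 0.31, adjusted p = 0.001858) and H2-Aa 2.504-fold (1.32 ± 0.24, adjusted p = 0.001349). At 6 weeks, 75 Gy gave 5 of 10 members called higher, against 7.28% of genes called higher and 3.13% lower. There H2-Aa rose 3.04-fold (1.60 ± 0.24, adjusted p = 0.0002137), H2-Eb1 2.99-fold (1.58 ± 0.31, adjusted p = 0.001248) and H2-Ab1 2.49-fold (1.32 ± 0.26, adjusted p = 0.001463). The median log2 fold change over the 10 members was 1.21 at 2 weeks and 0.98 at 6 weeks, beside medians over all genes of 0.0008 and 0.04.

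After 65 Gy the same chains lay in the same direction with smaller estimates. At 2 weeks no member was called by edgeR or by DESeq2, although 6 had an unadjusted p under 0.05 with either tool, and 3.47% of all genes were called higher and 0.88% lower. H2-Ab1 (log2 fold change 0.96 ± 0.26, adjusted p = 0.02831) and H2-DMb1 (0.75 ± 0.20, adjusted p = 0.02686) passed the adjusted p but not the fold limit. At 6 weeks 3 of 10 members were called higher, against 4.34% of genes called higher and 0.943% lower. These were the 3 chains: H2-Aa (1.14 ± 0.26, adjusted p = 0.01005), H2-Eb1 (1.09 ± 0.33, adjusted p = 0.03932) and H2-Ab1 (1.08 ± 0.28, adjusted p = 0.02054). The median over the members was 0.59 at 2 weeks and 0.78 at 6 weeks, beside -0.0085 and 0.0081 over all genes. The 6-week calls after 65 Gy rested on few libraries: with 1 left out, 0 (without 3138), 1 (without 3135, 3137 or 3140) or 2 (without 3136) members were called. Both doses were set against the same control libraries at each time, so their results are not independent.

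On the adjusted p alone, with no fold limit, the members that passed were 8 of 10 for 75 Gy at 2 weeks (7 higher, 1 lower; 22.3% of all genes passed), 2 of 10 for 65 Gy at 2 weeks (both higher; 11%), 7 of 10 for 75 Gy at 6 weeks (6 higher, 1 lower; 36%) and 6 of 10 for 65 Gy at 6 weeks (5 higher, 1 lower; 14.7%). The 1 lower gene was H2-Ob each time. At an unadjusted p under 0.05 the shares of all genes are at least as large as these percentages. Counts at that limit, throughout this report, are descriptions only.

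**Figure D2:**
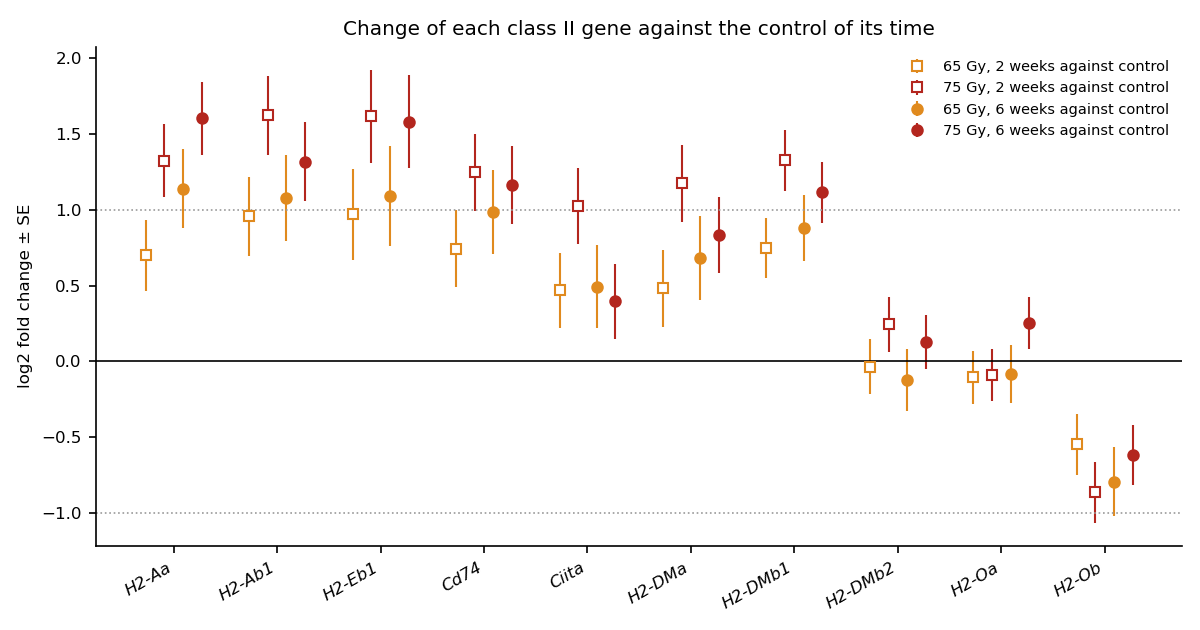
Log2 fold change of each class II gene against the control of its time (points, with bars for the SE) in 4 comparisons, open squares for 2 weeks and filled circles for 6 weeks, with dotted lines at 1 and -1. The chains, Cd74, H2-DMa and H2-DMb1 lie above 0 in all 4 comparisons, H2-DMb2 and H2-Oa lie near 0, and H2-Ob lies below 0 in all 4, from -0.55 to -0.87.

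Cd74 (GRCm38.p6, chr18:60803849-60812652), which encodes the invariant chain, was higher with the classical chains. It measured 771, 876 and 1129 CPM in 2-week controls, 1889, 1312 and 1450 CPM after 65 Gy and 1377, 1759 and 3449 CPM after 75 Gy. At 6 weeks controls gave 1015, 1102 and 991 CPM, 65 Gy gave 2157 and 1944 CPM, and 75 Gy gave 2151, 2362 and 2437 CPM. Irradiated and control libraries did not overlap at either time, and the 6-week groups were tight. The gene rose 2.37-fold after 75 Gy at 2 weeks (log2 fold change 1.25 ± 0.26, adjusted p = 0.00308) and 2.24-fold at 6 weeks (1.16 ± 0.26, adjusted p = 0.002993). After 65 Gy its log2 fold changes were 0.74 ± 0.25 (adjusted p = 0.07417) at 2 weeks and 0.99 ± 0.28 (adjusted p = 0.02915) at 6 weeks, the latter just under the fold limit. Its share of the members' counts ranged from 37.9% to 46.0% over all libraries.

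Ciita was higher after 75 Gy at 2 weeks and was not called at 6 weeks. Its 2-week CPM were 45.5, 47.1 and 59.97 in controls, 84.4, 59.4 and 67.5 after 65 Gy, and 67.4, 83.8 and 159 after 75 Gy. The 6-week CPM were 63.5, 60.5 and 55.3 in controls, 97.1 and 71.0 after 65 Gy, and 81.6, 87.5 and 66.6 after 75 Gy. Library 3134 was the highest of all, 1 of the 65 Gy libraries at 2 weeks lay within the control range, and at 6 weeks the lowest irradiated library lay just above the highest control. The log2 fold change for 75 Gy was 1.02 ± 0.25 (2.04-fold, adjusted p = 0.008589) at 2 weeks and 0.40 ± 0.25 (adjusted p = 0.228) at 6 weeks, and for 65 Gy 0.47 ± 0.25 (adjusted p = 0.2582) and 0.49 ± 0.27 (adjusted p = 0.2494). The 2-week call lay close to the fold limit and ended without 3126 (0.96), 3127 (0.97) or 3134 (0.57). The difference between the 75 Gy effects at the 2 times, -0.63 (95% interval -1.38 to 0.12, adjusted p = 0.3837), did not pass the test. Ciita overlaps Dexi on the opposite strand, and whether the counting used strand is not given in the sources used here.

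Of the genes for H2-DM, which exchanges peptides on class II, those for the α chain and 1 β chain rose. H2-DMa, the α chain, measured 38.9, 39.6 and 50.7 CPM in 2-week controls, 72.7, 52.9 and 54.7 after 65 Gy and 58.8, 78.5 and 154 after 75 Gy. It gave 54.1, 56.5 and 50.9 CPM in 6-week controls, 90.9 and 81.8 after 65 Gy and 88.2, 92.5 and 107 after 75 Gy. H2-DMa was called only for 75 Gy at 2 weeks (log2 fold change 1.17 ± 0.25, adjusted p = 0.00429), and at 6 weeks it passed the adjusted p for 75 Gy below the fold limit (0.83 ± 0.25, adjusted p = 0.01851). H2-DMb1, a β chain, went from 49.5, 47.9 and 60.6 CPM in 2-week controls to 101, 80.0 and 83.6 after 65 Gy and 107, 98.0 and 190 after 75 Gy. At 6 weeks the β chain went from 59.9, 72.3 and 59.1 CPM to 118 and 117 after 65 Gy and 120, 149 and 146 after 75 Gy. No irradiated library overlapped the controls, and H2-DMb1 was called for 75 Gy at both times (1.33 ± 0.20, adjusted p = 0.0004371, and 1.12 ± 0.20, adjusted p = 0.0007404).

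H2-DMb2, the neighbouring gene for the other β chain, did not pass the test in any of the 4 comparisons with control. It measured 32.9, 25.3 and 31.3 CPM in 2-week controls, 35.6, 23.9 and 27.8 after 65 Gy and 34.1, 30.4 and 41.6 after 75 Gy. The 6-week values were 55.04, 39.1 and 33.4 CPM in controls, 39.5 and 38.6 after 65 Gy and 42.2, 48.2 and 49.0 after 75 Gy. Irradiated and control libraries overlapped at both times, and the log2 fold changes ran from -0.12 to 0.25 with 95% intervals inside -0.55 to 0.63. H2-DMb2 held 34.1% to 39.9% of the H2-DMb counts in the 2-week controls and 35.1% to 47.9% in the 6-week controls, but 17.9% to 26.0% in the 11 irradiated libraries. This share was chosen after the values were seen and was not tested. Of stretches of 100 bases, 11.3% of those in H2-DMb1 and 10.3% of those in H2-DMb2 occur in both genes, so some reads could be counted for either.

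Of the H2-O genes, H2-Ob was lower after irradiation and H2-Oa did not pass the test. H2-Oa, the α chain, had 7.75, 5.97 and 7.53 CPM in 2-week controls, 7.68, 4.98 and 7.12 after 65 Gy and 6.99, 6.84 and 6.16 after 75 Gy. At 6 weeks it had 13.4, 10.04 and 8.95 CPM in controls, 9.89 and 10.5 after 65 Gy and 11.7, 14.2 and 12.6 after 75 Gy. These groups overlapped, and its log2 fold changes of -0.10 to 0.25 did not pass the test. H2-Ob, the β chain, measured 47.1, 28.7 and 33.8 CPM in 2-week controls, 27.1, 23.0 and 24.9 after 65 Gy and 20.7, 19.5 and 19.9 after 75 Gy. It measured 76.4, 46.3 and 43.3 CPM in 6-week controls, 30.2 and 33.7 after 65 Gy and 38.8, 38.7 and 30.5 after 75 Gy. All irradiated libraries were below all controls of their time, and the 2-week 75 Gy libraries were close together. The log2 fold changes were -0.87 ± 0.20 for 75 Gy (adjusted p = 0.006425) and -0.55 ± 0.20 for 65 Gy (adjusted p = 0.09405) at 2 weeks, and -0.62 ± 0.20 (adjusted p = 0.02452) and -0.79 ± 0.23 (adjusted p = 0.0304) at 6 weeks, none of which reached the fold limit. H2-Oa overlaps an antisense gene, BC051537, as H2-Eb1 does Gm20513, so reads of these pairs could be split by the counting. The same holds for H2-DMa, which overlaps Brd2, a protein-coding gene on the opposite strand, and also CR974462.3, CR974462.4 and Gm20493.

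The B cell markers that were called were lower, as H2-Ob was. Counts for this and all later lists are to be read beside the shares of all genes. Called higher were 5.67% (75 Gy, 2 weeks), 3.47% (65 Gy, 2 weeks), 7.28% (75 Gy, 6 weeks) and 4.34% (65 Gy, 6 weeks). Called lower were 2.07%, 0.88%, 3.13% and 0.943% in that order. A count of 1 gene in a list is a description only. For 75 Gy at 2 weeks 3 of 10 B cell markers were called lower and none higher (median log2 fold change -0.90). The counts called lower were 2 of 10 after 75 Gy at 6 weeks (median -0.85) and 2 of 10 after 65 Gy at 6 weeks (median -0.91), and 0 of 10 after 65 Gy at 2 weeks with edgeR and DESeq2 alike (median -0.38, 2 at an unadjusted p under 0.05). Bank1, a B cell adaptor, fell by 1.09 on the log2 scale after 75 Gy at 2 weeks (adjusted p = 0.002051), and Pax5, the B lineage factor, fell by 1.41 at 6 weeks (adjusted p = 0.0006305). The summed level of the 10 markers was 212.1 to 340.1 CPM in 2-week controls, 189.9 to 248.6 after 65 Gy and 110.4 to 172.9 after 75 Gy, and at 6 weeks 346.2 to 621.5, 234.5 to 241.3 and 201.4 to 269.9 CPM. No B cell marker was at 0 throughout a group. Controls 3126 and 3135, highest for B cell markers, were also highest for H2-Ob. Without 3126, H2-Ob gave -0.63 for 75 Gy at 2 weeks (adjusted p = 0.02916) and -0.32 for 65 Gy (adjusted p = 0.325), and none of the B cell markers was called lower for 75 Gy. Without 3127, H2-Ob gave -1.01 for 75 Gy at 2 weeks (adjusted p = 0.005945) and was called lower. Without 3135, H2-Ob gave -0.32 for 75 Gy at 6 weeks (adjusted p = 0.1748) and -0.49 for 65 Gy (adjusted p = 0.1138), and 1 and 0 B cell markers were called lower. At 6 weeks H2-Ob also missed the adjusted p for 75 Gy without 3142 (adjusted p = 0.05294) or 3143 (adjusted p = 0.1256), and for 65 Gy without 3138 (adjusted p = 0.2223) or 3140 (adjusted p = 0.1314). Over all libraries left out in turn the B cell counts ran from 0 (without 3126) to 5 for 75 Gy at 2 weeks, from 1 (without 3135 or 3143) to 5 for 75 Gy at 6 weeks and from 0 (without 3135, 3138 or 3140) to 6 for 65 Gy at 6 weeks.

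Summed H2-O counts were lower relative to summed H2-DM counts after irradiation. The ratio of H2-Oa plus H2-Ob counts to those of H2-DMa, H2-DMb1 and H2-DMb2 was 0.452, 0.308 and 0.290 in 2-week controls, 0.166, 0.178 and 0.193 after 65 Gy and 0.138, 0.128 and 0.0675 after 75 Gy. At 6 weeks it was 0.531, 0.336 and 0.365 in controls, 0.162 and 0.186 after 65 Gy and 0.202, 0.183 and 0.143 after 75 Gy. Every irradiated library was below every control. Over all libraries the log2 ratio was lower by 1.26 in irradiated lung (-1.26, 0.416-fold, exact permutation test within time, two-sided, p = 0.0002126, the smallest the 4704 arrangements can give, adjusted p = 0.001063 over 10 ratio tests). In the single groups the difference was -1.69 for 75 Gy and -0.94 for 65 Gy at 2 weeks, and -1.21 for both doses at 6 weeks, each with an exact permutation p of 0.1, the smallest these group sizes allow. The ratio joins genes used in the tests above, with H2-Ob lower and H2-DMa and H2-DMb1 higher, and is not further evidence for either. Being of whole-tissue RNA, the ratio cannot tell a change in cell mix from a change within cells.

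**Figure D3:**
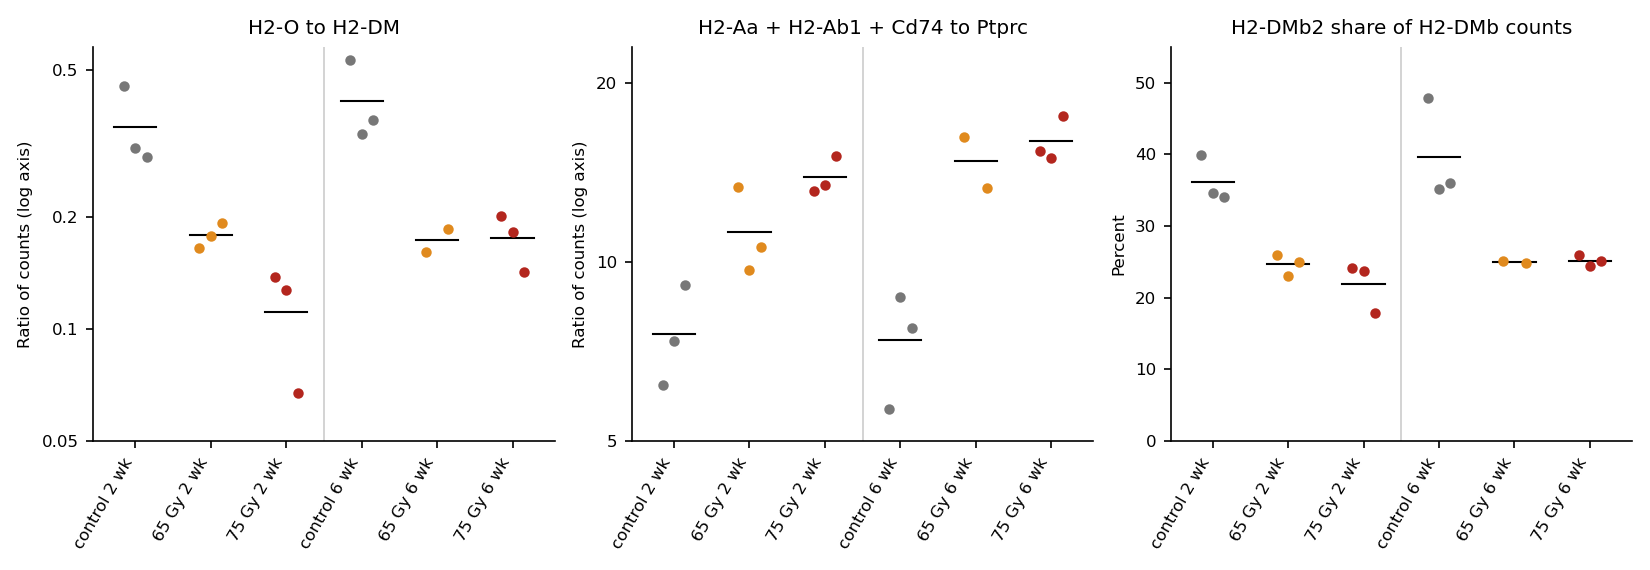
Per-library ratio of H2-O to H2-DM counts (left, log axis), of H2-Aa, H2-Ab1 and Cd74 counts to Ptprc counts (middle, log axis), and share of H2-DMb2 in the H2-DMb counts (right, percent, from 0), with points for libraries and bars for group means. On the left irradiated libraries lie at 0.0675 to 0.202 and controls at 0.290 to 0.531, in the middle irradiated libraries lie at 9.71 to 17.6 and controls at 5.67 to 9.16, and on the right irradiated libraries lie at 17.9% to 26.0% and controls at 34.1% to 47.9%.

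Class II rose more than the pan-leukocyte transcript Ptprc, which encodes CD45. Counts of H2-Aa, H2-Ab1 and Cd74 together were 6.23, 7.36 and 9.16 times those of Ptprc in 2-week controls, 13.4, 9.71 and 10.6 times after 65 Gy and 13.2, 13.5 and 15.1 times after 75 Gy. At 6 weeks they were 5.67, 8.74 and 7.74 times in controls, 16.3 and 13.3 times after 65 Gy and 15.4, 14.98 and 17.6 times after 75 Gy. No irradiated library overlapped any control. The log2 ratio was higher by 0.91 (1.88-fold, exact permutation test within time, two-sided, p = 0.0002126, the smallest possible, adjusted p = 0.001063). Its numerator genes were tested above, and the ratio was chosen with earlier results known, so it is not further evidence that those genes rose. With Ptprc, Coro1a, Laptm5, Cd53 and Arhgdib summed in place of Ptprc the difference was 0.52 (exact permutation p = 0.001276). By that measure the groups overlapped at 2 weeks, with ratios of 1.88 to 2.91 in controls, 2.43 to 3.29 after 65 Gy and 2.79 to 3.83 after 75 Gy, and the 65 Gy difference at 2 weeks was 0.24 (exact permutation p = 0.4). Library 3134, which had the highest class II levels at 2 weeks, also had the highest Ptprc (429 CPM, where the remaining 75 Gy libraries had 209 and 237), and its ratio of 15.1 lay close to theirs. With the 5 pan-leukocyte genes its ratio of 3.825 was the highest of the group, beside 2.785 and 3.145.

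Dendritic cells and macrophages both carry class II. Of 10 dendritic cell markers, 6 were called higher for 75 Gy at 2 weeks, 4 for 65 Gy at 2 weeks, 8 for 75 Gy at 6 weeks and 7 for 65 Gy at 6 weeks. Xcr1, a receptor of cross-presenting dendritic cells, rose by 1.82 ± 0.25 on the log2 scale after 75 Gy at 2 weeks (adjusted p = 0.0002258) and Cd209a, a marker of monocyte-derived and conventional type 2 dendritic cells, by 2.31 ± 0.21 at 6 weeks (adjusted p = 4.508e-06). Of 10 macrophage markers 7, 7, 7 and 8 were called higher in the same order, with C1qb, a complement subunit made by macrophages, rising by 3.42 ± 0.26 at 2 weeks and 3.48 ± 0.26 at 6 weeks after 75 Gy (adjusted p = 9.77e-07 and 6.672e-07). The summed dendritic cell markers ran from 158.2 to 217.4 CPM in controls and from 293.4 to 599.9 CPM in irradiated libraries, and the macrophage markers from 461.8 to 534.7 and from 1281 to 2806 CPM. None of these markers was at 0 throughout a group. The dendritic cell count for 75 Gy at 2 weeks was 4 without 3134, 5 without 3127 and 4 when only the groups compared were fitted. For 65 Gy it was 2 at 2 weeks without 3126 and 5 at 6 weeks without 3135. Leaving out 3138 left 1 library for 65 Gy at 6 weeks, with a median log2 fold change of 1.40 over the list.

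Lists for other cells that lung tissue can hold gave the following counts. Of 9 alveolar type 2 markers none was called in any of the 4 comparisons by edgeR or DESeq2, with 1, 0, 6 and 1 at an unadjusted p under 0.05 for 75 Gy and 65 Gy at 2 weeks and 75 Gy and 65 Gy at 6 weeks. Of 5 alveolar type 1 and airway markers none was called by either tool, while 3, 3, 5 and 4 had an unadjusted p under 0.05. Their summed level was nevertheless lower after irradiation, at 16226 to 20503 CPM in controls and 7084 to 14127 CPM in irradiated libraries. Of 7 neutrophil markers, 5, 5, 4 and 2 were called lower in that order, for example the chemokine receptor Cxcr2 (-2.12 ± 0.20, adjusted p = 9.502e-06, after 75 Gy at 2 weeks). The neutrophil count for 65 Gy at 2 weeks was 2 without 3129 and 3 without 3127, 3130 or 3131, that for 75 Gy at 6 weeks was 2 without 3135, and that for 65 Gy at 6 weeks was 1 without 3138. Plasma cell markers had 3 of 6 called higher after 75 Gy at 6 weeks and 1 of 6 after 65 Gy, led by Jchain, the joining chain of secreted antibody (4.30 ± 0.66 after 75 Gy, adjusted p = 0.0002553). Without 3143 the plasma cell count for 75 Gy at 6 weeks was 1. Pan-leukocyte genes had 2, 1, 1 and 0 of 5 called higher, the last also by DESeq2, with 2 of 5 at an unadjusted p under 0.05. For 75 Gy at 2 weeks that count was 1 without 3134, 3127, 3128 or 3132, and for 65 Gy at 2 weeks it was 0 without 3126. Of 6 lymph node genes, Cxcl13, a follicle chemokine, was called higher in all 4 comparisons, and 4 of 6 were called higher for 75 Gy and 3 of 6 for 65 Gy at 6 weeks. With at least 10 counts required in every library, those 6-week numbers were 2 and 1. The list's summed level did not rise at 6 weeks. It was 65.2 to 80.46 CPM in controls, 52.52 to 66.54 after 65 Gy and 54.97 to 57.13 after 75 Gy. Glycam1, an endothelial ligand of lymph node venules, had 0 counts in all control and 2-week libraries and 30 to 119 counts in the 5 irradiated libraries at 6 weeks. Chst4, a sulfotransferase of those venules, was called lower for 75 Gy at 2 weeks (-1.52 ± 0.47, adjusted p = 0.02916) and for 65 Gy at 6 weeks (-1.84 ± 0.58, adjusted p = 0.04471). The first call ended without 3127, 3128, 3133 or 3134, and the second without 3136, 3137, 3138 or 3140. Of 4 thymocyte genes tested none was called, or had an unadjusted p under 0.05, by edgeR, and none was called by DESeq2. The part of these cells in the class II values was not tested.

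**Figure D4:**
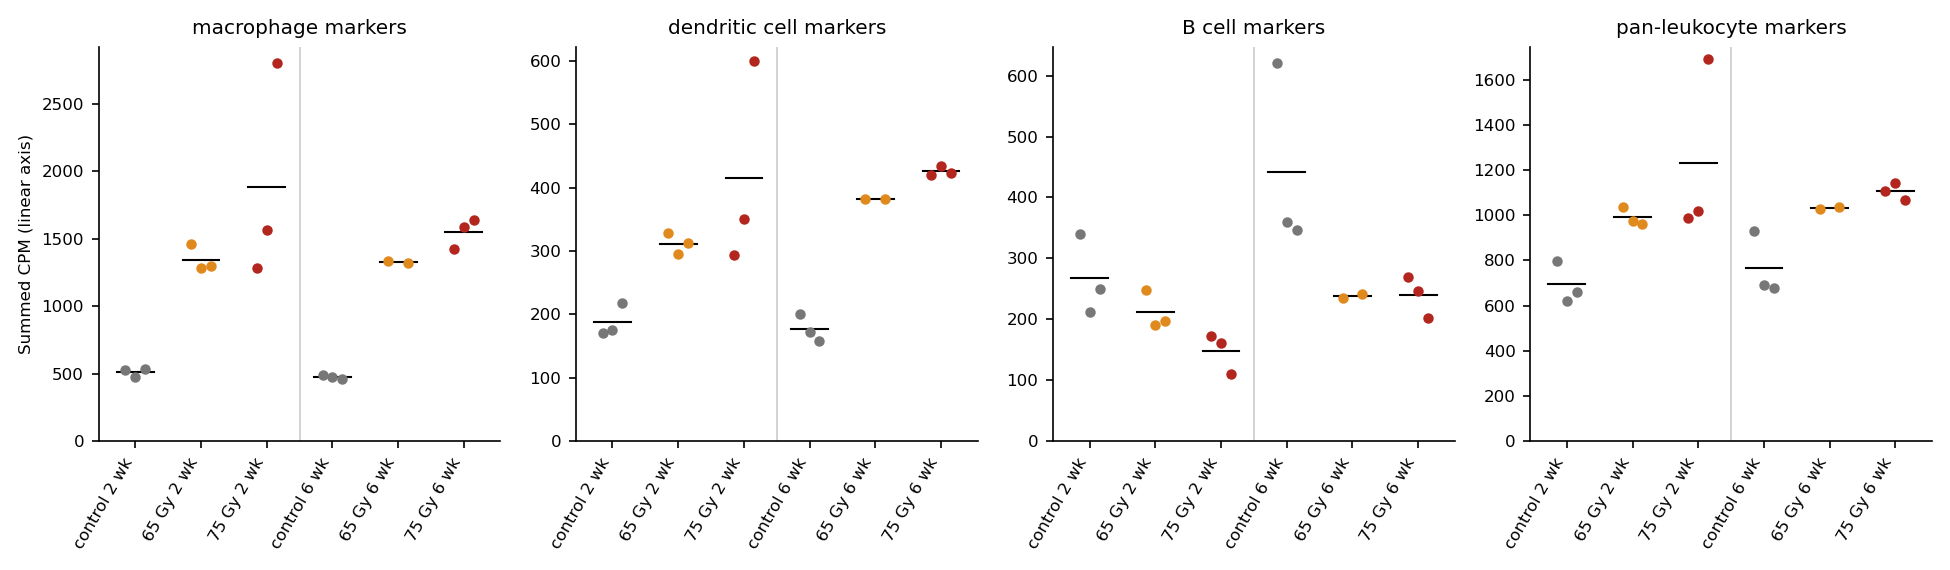
Summed CPM (linear axis from 0) of the markers of macrophages, dendritic cells, B cells and all leukocytes in every library, with points for libraries and bars for group means. Macrophage sums are 461.8 to 534.7 CPM in controls and at least 1281 CPM in irradiated libraries, while B cell sums reach 621.5 CPM in a control and lie at 110.4 to 269.9 CPM in irradiated libraries.

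Of 8 interferon-gamma pathway genes, 2 were called higher for 75 Gy at 2 weeks, among them Socs1, a feedback inhibitor of the pathway (1.87 ± 0.42, adjusted p = 0.005603). No gene of the list was called in the other 3 comparisons by edgeR or DESeq2, with 3 at an unadjusted p under 0.05 for 65 Gy at 2 weeks and 2 at each dose at 6 weeks. Ifng itself had only 8 to 92 counts a library, and its log2 fold change for 75 Gy was 1.23 ± 0.46 (adjusted p = 0.0666) at 2 weeks and 0.38 ± 0.48 (adjusted p = 0.5681) at 6 weeks. Ifngr2, a receptor chain, passed the adjusted p below the fold limit for 75 Gy at 2 weeks (0.70 ± 0.10, adjusted p = 0.000285) and 6 weeks (0.36 ± 0.10, adjusted p = 0.01136). The log2 fold changes of Irf1, an interferon-induced transcription factor, were 0.28 and -0.03 after 75 Gy, those of Ifngr1 -0.15 and 0.11 and those of Jak2 0.28 and 0.24, and none passed. Jak1, a receptor kinase, had -0.17 at 2 weeks and -0.33 at 6 weeks (adjusted p = 0.00491). Without library 3134, 1 gene of the list was called at 2 weeks.

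The genes for the factors that seat Ciita on the promoters were not called. None of Rfx5, Rfxap, Rfxank, Nfya, Nfyb, Nfyc and Creb1 was called in any of the 4 comparisons by edgeR or DESeq2, and 1, 2, 2 and 1 had an unadjusted p under 0.05. Their log2 fold changes after 75 Gy were -0.29 to 0.22 at 2 weeks and -0.36 to 0.07 at 6 weeks. Creb1, an X box factor, passed the adjusted p after 75 Gy at both times (-0.29 ± 0.08, adjusted p = 0.01375, and -0.32 ± 0.08, adjusted p = 0.005679), as did Nfya, a Y box subunit, at 6 weeks (-0.36 ± 0.09, adjusted p = 0.0043). Of the other class II loci, H2-Eb2, a second Eβ-like gene, had log2 fold changes of 0.19 to 0.42 with no call, and the pseudogene H2-Ea-ps had at most 6 counts in any library and was not tested.

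Genes that prepare peptide for class II rose with it. Of 10 endosomal processing genes, 6 were called higher for 75 Gy at 2 weeks, 6 for 65 Gy at 2 weeks, 8 for 75 Gy at 6 weeks and 5 for 65 Gy at 6 weeks, with medians of 1.55, 1.16, 1.30 and 1.02. Ctss, the cathepsin that trims the invariant chain, was 270, 147 and 186 CPM in 2-week controls and 916, 1317 and 3239 CPM after 75 Gy, with log2 fold changes for 75 Gy of 3.18 ± 0.36 at 2 weeks (adjusted p = 4.703e-05) and 3.34 ± 0.37 at 6 weeks (adjusted p = 2.083e-05). Ctsd, an aspartic cathepsin, rose by 2.32 ± 0.13 (adjusted p = 1.295e-07) and 2.42 ± 0.13 (adjusted p = 4.399e-08), and Ctsb by 1.79 ± 0.19 (adjusted p = 2.795e-05) at 2 weeks. Of 4 genes of class II turnover, Marchf1, the ligase that marks class II for degradation, was called for 75 Gy at 2 weeks (1.03 ± 0.22, adjusted p = 0.004157) and Cd83, which opposes Marchf1, for 75 Gy at 6 weeks (1.49 ± 0.23, adjusted p = 0.0002503). The call of Marchf1 ended without 3127, 3128 or 3134 and when only the groups compared were fitted. Ap1s1, an adaptor subunit of vesicle sorting, passed the adjusted p below the fold limit at both times (0.67 and 0.55).

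On the side of the T cell contact, 5 of 7 costimulatory ligands were called higher for 75 Gy at 2 weeks, 3 for 65 Gy at 2 weeks, 3 for 75 Gy at 6 weeks and 1 for 65 Gy at 6 weeks. Cd80, a ligand of CD28, rose by 1.65 ± 0.27 after 75 Gy at 2 weeks (adjusted p = 0.0007032), Cd274, which encodes PD-L1, by 1.88 ± 0.33 (adjusted p = 0.001109), and Cd86 by 2.02 ± 0.27 at 6 weeks (adjusted p = 8.04e-05). The count for 65 Gy at 2 weeks was 1 without 3129, and that for 65 Gy at 6 weeks was 3 with DESeq2. Of 9 genes of the receiving CD4 T cell, 3, 1, 7 and 3 were called higher in the same order, and Ctla4, the inhibitory receptor, rose by 2.32 ± 0.50 at 2 weeks (adjusted p = 0.004157) and 3.05 ± 0.51 at 6 weeks (adjusted p = 0.0004166) after 75 Gy. At 6 weeks the T cell count for 75 Gy was 4 without 3136 or 3137 and 3 without 3142, and that for 65 Gy was 0 without 3136, 3137, 3138 or 3140. Class I presentation, the pathway for CD8 T cells, had 4 of 11 genes called for 75 Gy at 2 weeks and 1 of 11, B2m (1.08 ± 0.21, adjusted p = 0.001476), at 6 weeks. The 6-week count is close to the 7.28% of all genes called higher for 75 Gy at that time. Psmb8, an immunoproteasome subunit, was among those called at 2 weeks (1.16 ± 0.21, adjusted p = 0.001268), as was H2-K1 (1.02 ± 0.19, adjusted p = 0.001875). No class I gene was called after 65 Gy by edgeR or DESeq2, with 6 and 4 at an unadjusted p under 0.05. Without library 3134 none of the class I genes was called at 2 weeks, and the count was 2 without 3126 or 3127 and 7 without 3132. Without 3142 none was called at 6 weeks. The difference between the class I and class II lists was not tested.

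No difference between the doses passed the test. Between 75 Gy and 65 Gy no member was called at either time by edgeR or DESeq2, and the share of all genes called was 0% at 2 weeks and 0% at 6 weeks. At 2 weeks 6 members had an unadjusted p under 0.05 by edgeR and 7 by DESeq2, and the interval of the log2 difference was 0.12 to 1.13 for H2-Aa and 0.16 to 1.23 for H2-DMa (adjusted p = 0.6925 each). The share of all genes at an unadjusted p under 0.05 is not given for this comparison. The counts of 6 and 7 therefore do not set the members apart from other genes. At 6 weeks no member had an unadjusted p under 0.05 by either tool, and the intervals were -0.10 to 1.03 for H2-Aa and -0.43 to 0.78 for Cd74.

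The 6-week controls lay above the 2-week controls for the H2-O genes and H2-DMb2 before adjustment. In control lung at 6 weeks against 2 weeks, no member was called by edgeR or DESeq2 and 0.576% of all genes were called. With either tool 3 members had an unadjusted p under 0.05, and they were H2-Oa (0.61 ± 0.17, adjusted p = 0.1026), H2-Ob (0.60 ± 0.20, adjusted p = 0.1613) and H2-DMb2 (0.51 ± 0.18, adjusted p = 0.1893). The share of all genes at that unadjusted limit is not given here either. The B cell marker sums were also higher in the 6-week controls, at 346.2 to 621.5 against 212.1 to 340.1 CPM. The effect of irradiation at 6 weeks was then set against its effect at 2 weeks. For 75 Gy no member was called and 0.254% of genes were, and for 65 Gy no member was called and 0.0136% of genes were, with no member at an unadjusted p under 0.05 for either dose by edgeR or DESeq2. For H2-Aa the difference of the 75 Gy effects was 0.28 (95% interval -0.43 to 0.99) and for H2-Ab1 -0.31 (-1.08 to 0.47).

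With group means removed, Pearson's r over the 17 libraries ran from 0.79 to 0.98 among H2-Aa, H2-Ab1, H2-Eb1, Cd74, Ciita, H2-DMa and H2-DMb1. Among H2-DMb2, H2-Oa and H2-Ob it ran from 0.68 to 0.76, and between H2-Oa or H2-Ob and the first 7 genes from -0.12 to 0.22. H2-DMb2 lay between, with r of 0.47 to 0.68 with those 7 genes. Libraries share depth and cell content, and removing a mean per group leaves fewer than 17 free points. For each of the first 7 genes, library 3134 lay far above the other 75 Gy libraries at 2 weeks. How far these r values, and the nearest genes with group means removed given below, rest on library 3134 was not tested. The r values are descriptions of 17 points with no test. Genes outside the list whose log2 CPM lay closest to the mean standardised level of the 10 members were ranked among 14473 genes. Over all libraries the nearest were Aim2 (r = 0.95), a cytosolic DNA sensor, Lsp1 (0.94), a leukocyte actin-binding protein, and Itgad (0.92), an integrin α chain, followed by Bin3, Matk, Slc22a4, Plgrkt, Kxd1, Susd3 and Arhgap25 (0.91 to 0.92). With group means removed they were Plbd1 (0.96), Mcm10, Neurl3, Cd7, Slc2a6, Gm4735, Eno1b, Nfkbie, Ripk3 and Gatm (0.93 to 0.95), and the lists had no gene in common. The mean itself held the members unevenly, since its r with the single members over all libraries ran from -0.10 for H2-Ob to 0.95 for H2-DMa.

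Library 3134 decided part of the 2-week result. Without it, 2 of 10 members, H2-Ab1 (log2 fold change 1.11, adjusted p = 0.0004469) and H2-Eb1 (1.03, adjusted p = 0.003826), were called for 75 Gy at 2 weeks in place of 7. The other 5 kept an adjusted p of at most 0.05 with lower estimates, from 0.57 for Ciita (adjusted p = 0.04197) to 0.96 for H2-DMb1 (adjusted p = 0.0002784). H2-Ob gave -0.86 (adjusted p = 0.02321). At 6 weeks after 75 Gy, 5 members were called with each library left out in turn.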

How the data were processed

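Lung RNA of 17 libraries in 6 groups was sequenced for the authors from stranded mRNA libraries as paired reads, and the authors' methods give the reads as trimmed with Trimmomatic, aligned with HISAT2 to GRCm38.p6 and assembled with StringTie. The deposited values are raw read counts per gene, and the step from StringTie to counts and its strand setting are not given in the sources used here. The totals of 46764569 to 66797879 counts set the precision.

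The counts were tested with edgeR 4.0.16 (R 4.3.3): filterByExpr (minimum count 10, minimum total 15), which left 22052 genes, TMM factors, and glmQLFit and glmQLFTest with 1 coefficient per group over all 17 libraries. Benjamini-Hochberg adjustment ran over all genes tested, and genes were called at an adjusted p no higher than 0.05 with a log2 fold change of 1 or more in size. CPM use TMM-scaled library sizes. DESeq2 1.42.0, other scalings and filters, the exact test of edgeR, fits of only the groups compared and fits without each library were the alternatives. The tests were checked on simulated data. The ratios were tested by exact permutation of libraries, two-sided. Exon lengths come from GENCODE M21 and promoters from RefSeq GRCm38.p6. Figures and ratios used Python 3.11.15.

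The members, the gene lists and the ratios were chosen with earlier results of these data known. The text names all members, all genes of the promoter factor, interferon-gamma and other class II locus lists that are reported here, and in each other list genes among the 2 with the smallest p for 75 Gy at 2 weeks and the 2 at 6 weeks. H2-Pa and H2-Pb were not analysed here. Ptprc, Coro1a and Arhgdib are named as terms of a ratio. No column of per-sample values was left unmapped. The single-gene results of 2 list members are not reported here, and the list counts include them.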

Additional observations from a re-analysis of the deposited data

How the results depend on the processing

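Of the counts of members called, that for 75 Gy at 6 weeks (5) was the same under all 7 alternatives and all 6 fits without 1 library, and the comparisons of doses, control times and effects over time stayed at 0 in all. For 75 Gy at 2 weeks the 7 calls became 4 when only the groups compared were fitted, where Cd74, Ciita and H2-DMa had adjusted p of 0.0735, 0.08603 and 0.07618, and ran from 2 (without 3134) to 7 with a library left out. Without 3127 the calls were 6 higher and 1 lower, the lower gene being H2-Ob. For 65 Gy at 2 weeks the count ran from 0 to 1 (H2-Ab1, without 3128 or 3130) and for 65 Gy at 6 weeks from 0 to 2, with 3 or 4 under the other alternatives. The H2-O to H2-DM log2 difference ran from -1.33 to -1.16 with a library left out and was -1.43 for H2-Ob to H2-DMa, and the class II to Ptprc difference ran from 0.82 to 0.98, was 0.9963 for H2-Aa alone and 0.52 with 5 pan-leukocyte genes. No called result reversed. For single members, 610 of 630 values without a library and 603 of 610 under other alternatives kept their side of the limits, and the cause of the others was not tested. With only the groups compared, the lists called for 75 Gy at 2 weeks numbered 1 of 11 class I genes, 2 of 7 costimulatory ligands, 1 of 9 T cell genes and 0 of 8 interferon-gamma genes, and 3 of 7 neutrophil genes, while Chst4 was not called at either time. The scalings moved the median of all genes by at most 0.0402. No paired analysis was possible because the groups share no replicate number.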
